A study of Mus musculus with 2 samples.

Results

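Arg1-high hypoxic myeloid cells were picked out of single-cell RNA sequencing of CD45-positive cells from mouse B16F10 melanomas. They were selected on measured values, as unique molecular identifiers (UMIs, counts of single captured RNA molecules) per droplet barcode. A barcode had to hold at least 3 UMIs of Arg1 and at least 3 UMIs summed over Egln3, Bnip3 and Ero1l, which are the 2 inclusion gates. It also had to pass 4 exclusion gates, with under 3 UMIs of Lpl, Ccl24 and Mmp12 together, under 2 of Folr2, Cbr2 and Ccl8, 0 of Cd3d, Cd3e, Cd3g and Ncr1, and under 3 of Xcr1, Clec9a, Ccr7 and Siglech. These gates left 786 of the 22699 barcodes that passed the quality filters, of which 478 of 8937 were in the control library and 308 of 13762 in the IL4 library.

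B16F10 is a melanoma cell line of C57BL/6 mice and had been grown under the skin. Both groups had the genotype WT and 1 library each. Control mice were given bone-marrow-derived macrophages (BMDMs) without treatment, and IL4 mice were given BMDMs treated with the cytokine IL-4. The grouping follows the treatment among the sample characteristics, and the separate protocol label names IL-4-treated BMDMs for the control sample as well, and the labels thus disagree on that point. The number and age of the animals, and which barcodes stem from the transferred macrophages and which from the host, are not given in the sources used here.

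Arg1 encodes arginase 1, which splits arginine into ornithine and urea and is known in tumour macrophages for depriving T cells of arginine. In cells with ample oxygen, prolyl hydroxylases such as Egln1 and Egln3 mark the transcription factor subunit Hif1a for destruction through Vhl. When oxygen is scarce, Hif1a persists, pairs with Arnt and switches on genes for glucose uptake, glycolysis, vessel growth and survival, through DNA sites that share the core ACGTG. Egln3 is itself such a target, as are Bnip3, which promotes the removal of mitochondria, and Ero1l, an oxidase that helps proteins to form disulfide bonds in the endoplasmic reticulum.

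With 1 library per group there is no test between groups. Levels are CPM, the summed UMIs of a group of barcodes scaled to the same total in every group, and ratios are log2((CPM + 1)/(CPM + 1)). All intervals are 95% intervals of counting error only, and counts of higher and lower genes use a threshold of 1.5-fold. Total depth was 95499107 UMIs for control and 133151428 UMIs for IL4, with 4633130 and 2866304 UMIs in the Arg1-high hypoxic barcodes. Their median depth was 8722 UMIs (control) and 8268 UMIs (IL4), against 8761.5 and 8008 for other myeloid barcodes. The libraries shared 23 barcode sequences, 2 of which passed all gates in either library and 0 in both.

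Both libraries mixed barcodes with Xist but no Y-linked transcript (Xist-only) and barcodes with a Y-linked transcript but no Xist (Y-only), which shows that each held cells of both sexes. Y-only barcodes made up 36.8% of these kinds in the control library and 10.9% in the IL4 library. Among the Arg1-high hypoxic barcodes they made up 51.0% (45.7 to 56.3; 181 of 355) and 13.2% (9.34 to 18; 34 of 257). Results between the libraries are therefore also given within Xist-only and Y-only barcodes, with the caution that the Y-only IL4 set holds 34 barcodes.

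The label was first checked against its markers. Tyrobp, an adaptor of myeloid receptors, had a UMI in 470 of 478 control and 301 of 308 IL4 barcodes, and Fcer1g, the signalling chain of Fc receptors, in 468 and 306. The lysozyme gene Lyz2 had one in 465 and 300, and the macrophage growth factor receptor gene Csf1r in 356 and 234. Lyz2, Csf1r and Cd68 together reached 5 UMIs in 432 and 281 barcodes and were at 0 in 5 and 2. The B cell gene Cd79a had a UMI in 3 and 2 barcodes and the melanoma gene Pmel in 7 and 2. A count of barcodes with 1 UMI also takes in free RNA, so the summed level of 12 pan-myeloid markers was set beside it. It was 11040 CPM in control and 11232 CPM in IL4 members, and 1177 and 1296 CPM in lymphocyte barcodes, which held 3 or more UMIs of the T and NK cell gate genes and were chosen to have none of Lyz2, Csf1r and Cd68, 3 of these 12 markers. C1qa, a macrophage gene, had a UMI in 237 and 173 barcodes. Ly6c2, a monocyte gene that lymphocyte barcodes also held, had one in 115 and 154. The barcodes are therefore called myeloid and no finer name is given.

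The 4 genes that chose the barcodes are given as a description. Arg1 (chromosome 10, 24915221 to 24927484, minus strand, GRCm38) stood at 2161 CPM in the control and 1607 CPM in the IL4 barcodes, against 86.5 and 76.7 CPM in other myeloid barcodes. The median barcode held 14 (control) and 9 (IL4) Arg1 UMIs, and the highest held 135 and 123. Egln3 stood at 305 and 185 CPM, against 55.1 and 27.4 CPM in other myeloid barcodes. Bnip3 stood at 329 and 241 CPM, against 58.2 and 41.9 CPM. Ero1l stood at 583 and 370 CPM, against 130 and 82.5 CPM. All 4 genes were thus lower in the IL4 than in the control members, in barcodes that had passed the same gates.

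The promoters of Egln3, Bnip3, Ero1l, Slc2a1 and Pgk1 are shown because the motif bound by the HIF pair can be read in them. None is shown for Arg1. Each line gives the 250 bases before the start site of the RefSeq gene on GRCm38.p6, in the direction of transcription. Capitals mark ACGTG or its reverse complement CACGT, which overlap by 4 bases where they meet as CACGTG. Egln3 is read from chr12:54203875-54204124, minus strand.
Egln3: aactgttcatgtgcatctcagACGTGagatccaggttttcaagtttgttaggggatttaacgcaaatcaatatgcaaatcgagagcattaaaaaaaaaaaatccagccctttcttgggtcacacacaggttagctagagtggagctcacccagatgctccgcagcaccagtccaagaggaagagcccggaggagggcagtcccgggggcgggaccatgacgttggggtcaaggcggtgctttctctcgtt
Bnip3 is read from chr7:138909507-138909756, minus strand, and holds the overlapping pair.
Bnip3: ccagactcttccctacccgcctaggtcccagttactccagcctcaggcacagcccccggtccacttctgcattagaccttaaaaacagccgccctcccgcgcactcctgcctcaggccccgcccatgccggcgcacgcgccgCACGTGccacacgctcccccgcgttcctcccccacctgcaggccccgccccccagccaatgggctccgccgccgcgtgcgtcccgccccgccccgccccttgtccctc
Ero1l, which RefSeq names Ero1a, is read from chr14:45318573-45318822, minus strand.
Ero1l: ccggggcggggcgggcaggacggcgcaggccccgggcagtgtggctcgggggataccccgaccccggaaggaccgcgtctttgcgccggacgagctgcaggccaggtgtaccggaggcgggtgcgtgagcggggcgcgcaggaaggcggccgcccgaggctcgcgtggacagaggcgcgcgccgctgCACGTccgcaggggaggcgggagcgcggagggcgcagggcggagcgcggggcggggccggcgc
Slc2a1, the gene of the glucose transporter GLUT1, is read from chr4:119108495-119108744, plus strand.
Slc2a1: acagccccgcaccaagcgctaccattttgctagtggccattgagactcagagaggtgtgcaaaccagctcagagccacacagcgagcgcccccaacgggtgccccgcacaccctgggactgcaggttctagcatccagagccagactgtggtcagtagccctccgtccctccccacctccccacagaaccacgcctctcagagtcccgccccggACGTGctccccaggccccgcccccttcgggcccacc
Pgk1, the gene of the glycolytic enzyme phosphoglycerate kinase, is read from chrX:106186850-106187099, plus strand.
Pgk1: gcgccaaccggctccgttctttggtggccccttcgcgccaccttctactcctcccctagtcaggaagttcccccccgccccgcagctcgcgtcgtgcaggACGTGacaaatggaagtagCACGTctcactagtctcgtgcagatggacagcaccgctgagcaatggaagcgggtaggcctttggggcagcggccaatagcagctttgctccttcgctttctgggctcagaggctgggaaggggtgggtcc

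The motif starts 229 bases before the start site of Egln3, 63 before that of Ero1l and 36 before that of Slc2a1. In Pgk1 it starts 150 and 131 bases before the start site. Over all 27025 genes with a promoter in the table, 4998 (18.5%) held ACGTG on either strand in a window of this length, and of the 9908 such genes with at least 50 UMIs in these barcodes and other myeloid barcodes together, 2519 (25.4%) did. Of the glucose uptake and glycolysis list, 25 of 26 genes matched a promoter and 13 (52%) held the motif. Of the other hypoxia-induced genes, 24 of 30 matched and 16 (66.7%) held it, and without the gate genes Bnip3 and Ero1l 14 of 22 (63.6%) did. MHC class II presentation genes held it in 2 of 12 (16.7%) and NF-kB inflammatory genes in 4 of 16 (25%). Of the 20 genes with the highest ratios over other myeloid barcodes, given below, 15 matched and 5 (33.3%) held it. The windows of Nt5e and Pf4 held none. Vegfa, Hilpda and Ldha each had a window with the motif and another without it. The promoters shown are thus not typical of the highest genes. A match of these letters is a description of the window, not a bound site.

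The members were then set against 9359 other myeloid barcodes, which passed the same filters and exclusion gates, held at least 5 UMIs of Lyz2, Csf1r and Cd68 together and lacked at least 1 inclusion gate. Because the gates chose the members on genes of the same barcodes, all values of this contrast are a description. Over all 13018 genes with at least 50 UMIs, 875 (6.72%) were at least 1.5-fold higher and 1355 (10.4%) at least 1.5-fold lower, and the median log2 ratio of all genes was -0.09. The gate genes themselves were left out of the list counts, medians and sums of ratios and levels.

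Glucose uptake and glycolysis genes were higher as a group, 20 of 26 by at least 1.5-fold and 0 lower by that much, with median log2 ratios of 0.97 (control) and 1.03 (IL4). Slc2a1 stood at 382 CPM in control members and 118 CPM in other control myeloid barcodes, and the IL4 levels were 217 and 79.2 CPM. These were folds of 3.22 (3.05 to 3.41) and 2.74 (2.51 to 2.98). Pgk1 was 2.73-fold (2.62 to 2.84) and 2.74-fold (2.61 to 2.88) higher. Ldha, the enzyme that turns pyruvate to lactate, was 1.93-fold (1.86 to 1.99) and 2.05-fold (1.96 to 2.14) higher. Genes of sugar storage were also higher. Gys1, glycogen synthase, had the highest log2 ratio of the list at 2.16, and Pgm1, which links glycogen to glycolysis, stood at 1.81. Slc2a3, a further glucose transporter, was an exception, with 11.9 against 12.1 CPM (control) and 7.33 against 7.32 CPM (IL4).

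Among the other hypoxia-induced genes, 21 of 26 with enough UMIs were at least 1.5-fold higher and 0 lower. Their medians were 1.30 (control) and 1.10 (IL4). Vegfa, the main growth factor of blood vessels, stood at 630 and 556 CPM in members, against 173 and 188 CPM. Hilpda, which slows the breakdown of lipid droplets, was 3.49-fold (3.36 to 3.62) and 3.24-fold (3.09 to 3.40) higher. Adm, which encodes the vessel-dilating peptide adrenomedullin, had a log2 ratio of 2.73 from low levels, with 17.9 CPM in control and 7.68 CPM in IL4 members. Ndrg1, a known target of HIF, had a log2 ratio of 1.63.

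The sensors of oxygen showed smaller differences, apart from Egln1. Egln1, the main HIF prolyl hydroxylase, stood at 159 and 99.1 CPM in members, against 41.4 and 34.2 CPM. Hif1a itself stood at 650 and 562 CPM, against 469 and 437 CPM, which is 1.38-fold (1.33 to 1.44) and 1.29-fold (1.22 to 1.35). Of the 10 genes of this list with enough UMIs and not used by the gates, 2 were at least 1.5-fold higher, Egln1 and Vhl.

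The highest ratios of all included secreted and surface genes as well as genes of proteins inside the cell. Nt5e, the ectoenzyme CD73 that makes adenosine, stood at 143 CPM in control members against 18.2 CPM, a fold of 7.85 (7.02 to 8.76), while the IL4 levels were 59.0 against 12.4 CPM, 4.76-fold (3.99 to 5.65). Nos2, the inducible nitric oxide synthase that also uses arginine, counted here among the hypoxia genes, stood at 33.9 and 25.8 CPM, against 3.90 and 1.71 CPM. The platelet chemokine genes Pf4 and Ppbp had log2 ratios of 2.36 and 3.32, the neutrophil attractant Cxcl3 2.27, and Inhba, a subunit of activin, 2.19. Sdc1, a syndecan of the cell surface, stood at 2.51 and the mucin-like Pdpn at 2.17. Of the remaining genes among the 20 highest, Appl2, Agbl3, Ak4, Zfp395, Selenbp1, Gpnmb, Impa2, Ppp1r3b, Tnfrsf26 and Flrt2, all lay between 1.91 and 2.49.

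**Figure D1:**
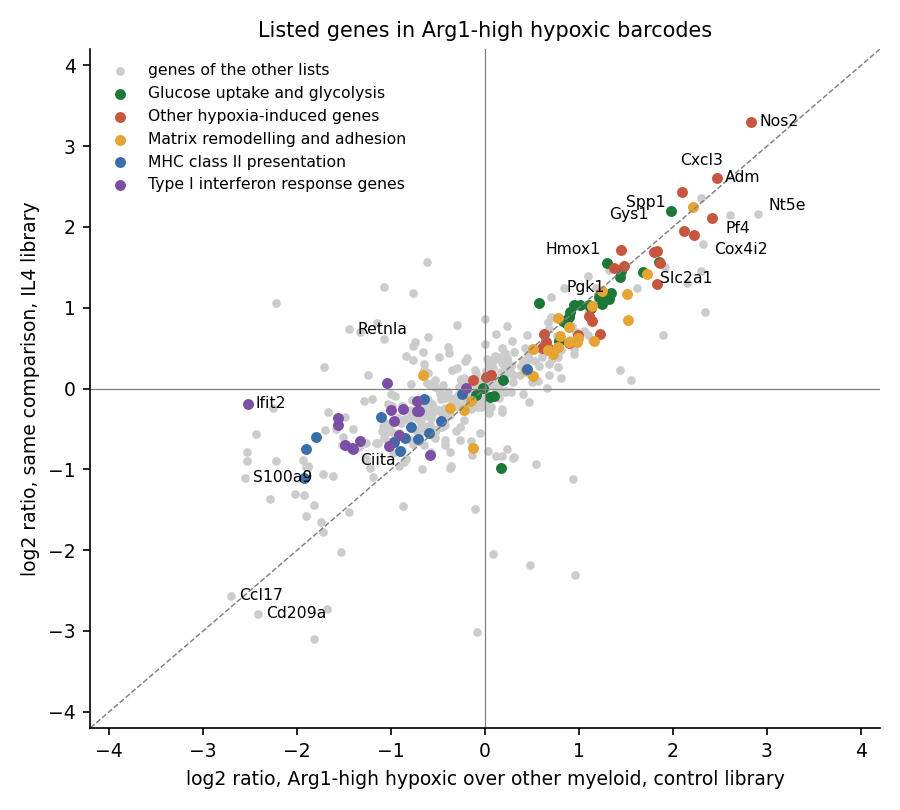
Log2 ratio of Arg1-high hypoxic over other myeloid barcodes with control barcodes on the x axis and IL4 barcodes on the y axis. Each point is a listed gene with at least 50 UMIs, coloured by list, and the dashed line marks equal ratios. Glycolysis and other hypoxia-induced genes lie mostly to the upper right in both libraries, with Nos2 at the far end, while MHC class II genes lie mostly to the lower left. Type I interferon genes also lie low, and most of them lie lower on the control axis.

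Matrix and adhesion genes were also higher, 15 of 24 by at least 1.5-fold. Spp1, which encodes osteopontin, stood at 755 and 404 CPM in members, against 163 and 84.2 CPM. Thbs1, which encodes thrombospondin 1, stood at 3354 and 2566 CPM, against 1172 and 1142 CPM, and Fn1, fibronectin, was 2.37-fold (2.31 to 2.44) and 2.32-fold (2.24 to 2.41) higher. Of lipid handling genes, 12 of 23 were higher and 1 lower, and Hmox1, which degrades haem, had a log2 ratio of 1.64.

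Genes known to respond to IL-4, to which Arg1 belongs in macrophages, split in both directions. Of 23 such genes that the gates did not use, 4 were higher (Fn1, Mrc1, Slc7a2 and Tgm2) and 5 lower (Ccl17, Mgl2, Clec10a, Pparg and Ppargc1b). Their median was -0.01. Il4ra, the receptor chain for IL-4, stood at 144 and 156 CPM in members, against 120 and 129 CPM. Mrc1, the mannose receptor gene, was 1.58-fold (1.49 to 1.67) and 1.39-fold (1.30 to 1.5) higher. The lectin gene Mgl2 was lower, with 26.5 and 20.6 CPM against 102 and 63.4 CPM, and so was the chemokine gene Ccl17, with 1.94 and 1.74 CPM against 18.2 and 15.3 CPM. Retnla, a marker of alternative activation, had a UMI in 18 control and 16 IL4 members, and 1 control barcode held 51.9% of its control UMIs. Smyd5, the methyltransferase named in the title of the study, had 19 and 20 UMIs in all, or 4.10 and 6.98 CPM.

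Antigen presentation and interferon response genes lay on the other side. Of MHC class II presentation genes, 10 of 15 were at least 1.5-fold lower and 0 higher, with medians of -0.85 (control) and -0.61 (IL4). H2-Ab1, a class II chain, stood at 1529 and 1668 CPM in members, against 2759 and 2552 CPM, and Ciita, the master activator of these genes, at 41.0 and 42.9 CPM, against 111 and 72.4 CPM. Of MHC class I presentation genes, 8 of 18 were lower, among them the immunoproteasome subunits Psmb8, Psmb9 and Psmb10 with log2 ratios of -0.78, -0.81 and -0.88. Of type I interferon response genes, 13 of 17 were lower, with medians of -1.0 (control) and -0.37 (IL4). Cd274, which encodes the checkpoint ligand PD-L1, was 1.36-fold (1.29 to 1.43) and 1.59-fold (1.5 to 1.68) higher.

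Among the lowest genes, Cd209a is known from dendritic cells, S100a9 from neutrophils and monocytes, and Mki67 and Ccnd1 from dividing cells. Cd209a stood at 26.8 and 10.8 CPM in members, against 147 and 80.7 CPM. All 18 cell cycle genes had a ratio below 0, 10 of them by at least 1.5-fold, and Mki67 stood at 6.69 and 7.68 CPM, against 24.5 and 28.7 CPM. The remaining low genes were Kmo, Ctnnd2, Grap2, Ust, Mgl2 and Rnase6, between -1.84 and -1.67. Markers of other cell types summed to low levels, with T cell markers at 23.7 CPM in control and 42.6 CPM in IL4 members, melanoma markers at 280 and 248 CPM, and fibroblast markers at 6.04 and 8.02 CPM. Neutrophil markers summed to 208 and 361 CPM, against 489 CPM (control) and 377 CPM (IL4) in other myeloid barcodes. Of the neutrophil list, Slfn4 held 384 and 598 UMIs, from 139 control and 163 IL4 members. In the IL4 members 1 barcode held 70 of 79 S100a8 UMIs and 1 held 60 of 73 S100a9 UMIs, and in control members 24 of 72 and 49 of 113. The sums thus do not measure how many cells of these types were present. The part of barcodes of other cell types in these ratios was not tested.

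Detection after each barcode was thinned to 2000 UMIs gave the same order, with lymphocyte barcodes set beside it as a partial measure of free RNA. Because these were chosen to hold none of Lyz2, Csf1r and Cd68, their shares can understate free myeloid RNA in the other droplets. Slc2a1 was then detected in 47.3% of control members, 17.6% of other myeloid barcodes and 8.33% of lymphocyte barcodes, and in 31.7%, 14.0% and 9.82% in the IL4 library. Pf4 was detected in 25.1%, 9.60% and 2.08% of these groups (control) and in 28.8%, 10.0% and 2.68% (IL4). Nos2 was detected in 6.96% and 4.58% of members and in 0 of 48 and 0 of 112 lymphocyte barcodes. Thinning left out 4 control and 2 IL4 members with fewer UMIs, and median depths before it were 8722 and 8268 UMIs in members and 6424 and 6428.5 UMIs in lymphocyte barcodes. For Nt5e, by contrast, the lymphocyte share of 12.5% and 8.93% was close to the member share of 18.1% and 8.82%, and lymphocytes are known to express this gene.

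The other myeloid barcodes were then divided by which inclusion gate they passed. The Arg1 gate alone was passed by 548 barcodes, the hypoxia gate alone by 1527 and neither by 7284. Median depths in control and IL4 were 7298 and 7154.5 UMIs with the Arg1 gate alone and 9872 and 9132.5 with the hypoxia gate alone. With neither gate they were 8618 and 7857 UMIs, and in members 8722 and 8268. The gates read raw UMIs, and the part of depth in these contrasts was not tested. Against the Arg1 gate alone, 4.21% of all 9152 genes tested were at least 1.5-fold higher in members and 4.25% lower. Against the hypoxia gate alone, 4.25% of 10647 genes were higher and 7.4% lower.

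The glycolysis list was lowest with neither gate and highest in members. In the control library its summed level was 4250 CPM with neither gate, 6559 CPM with the Arg1 gate alone, 8030 CPM with the hypoxia gate alone and 11121 CPM in members. In the IL4 library the same order held, at 3865, 6179, 6912 and 9096 CPM. Of this list, 20 of 25 genes were at least 1.5-fold higher in members than with the Arg1 gate alone, and than with the hypoxia gate alone 5 of 25 were higher (Gys1, Pgm1, Pgk1, Gbe1 and Slc2a1) and 1 lower (Slc2a3). The sum of the other hypoxia-induced genes was also lowest with neither gate and highest in members, but the single gates did not keep that order. In control it was close, at 4512 CPM with the Arg1 gate alone and 4585 CPM with the hypoxia gate alone. In IL4 it was reversed, at 4774 and 3886 CPM. Of these genes, Vegfa had a pooled level of 474 CPM under the Arg1 gate alone and 270 CPM under the hypoxia gate alone, against 602 CPM in members.

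MHC class II genes instead were lower wherever the Arg1 gate was passed. Their summed level was 12541 CPM with the Arg1 gate alone and 12696 CPM in members of the control library, against 17434 CPM with the hypoxia gate alone and 19666 CPM with neither gate. The IL4 library gave 12879, 12648, 18250.5 and 17544 CPM. Against the Arg1 gate alone, 0 of 11 genes with enough UMIs were past 1.5-fold, and against the hypoxia gate alone 10 of 14 were lower in members.

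**Figure D2:**
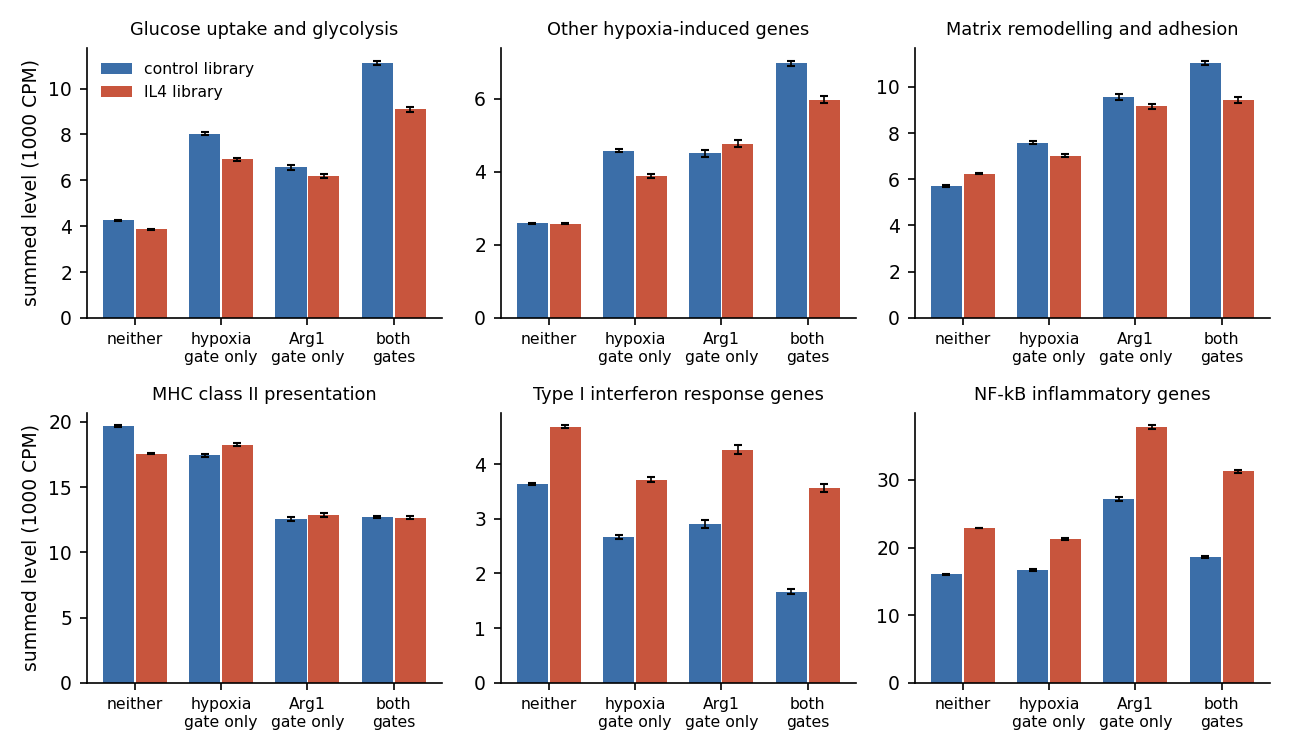
Summed level of 6 gene lists in myeloid barcodes that passed neither inclusion gate, the hypoxia gate only, the Arg1 gate only or both (the members), in units of 1000 CPM (y axis). Bars are the control (blue) and IL4 (red) library and black bars the 95% Poisson interval of the summed counts. Glycolysis reaches its highest level where both gates were passed, while MHC class II is low wherever the Arg1 gate was passed. NF-kB inflammatory genes are highest with the Arg1 gate alone.

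Single genes divided the same way. Pf4 stood at 636 CPM with the Arg1 gate alone and 528 CPM in members, but at 76.9 CPM with the hypoxia gate alone and 72.1 CPM with neither. Cxcl3, Pdpn and Flrt2 shared that pattern, with log2 ratios over the Arg1 gate alone of 0.11, 0.00 and -0.23 and over the hypoxia gate alone of 1.77, 1.88 and 1.57. Nos2 was higher in members than under either gate alone, at 30.8 CPM pooled against 5.12 and 6.0 CPM. Nt5e, at 111 CPM against 43.0 and 30.4 CPM, Inhba, at 163 CPM against 54.6 and 59.2 CPM, and Spp1, at 621 CPM against 291 and 247 CPM, were likewise higher than under either gate alone.

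**Figure D3:**
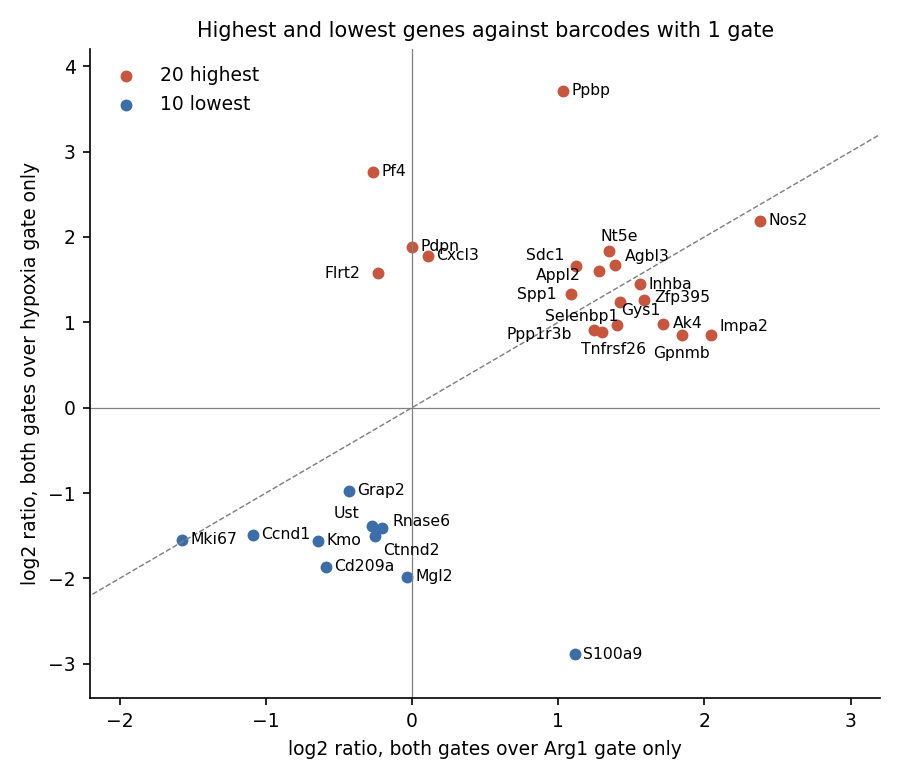
Log2 ratio of members over myeloid barcodes with the Arg1 gate only (x axis) and over those with the hypoxia gate only (y axis), for the 20 highest (red) and 10 lowest (blue) genes of the contrast with all other myeloid barcodes, and the dashed line marks equal ratios. Pf4, Pdpn, Cxcl3 and Flrt2 lie near 0 on the x axis and high on the y axis, whereas Nos2, Nt5e and Inhba are above 1 on both. S100a9 is the only low gene shown that was higher than under the Arg1 gate alone.

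The closest barcodes were the 269 that passed both inclusion gates and failed only the exclusion gate on Lpl, Ccl24 and Mmp12. The median ratio of members over them was 0.00 for the 2 hypoxia lists together. Spp1 was lower in members, at 621 CPM pooled against 1866 CPM, with a log2 ratio of -1.59, and Fn1 stood at 1415 against 2054 CPM. Arg1 differed little, at 1949 against 2044 CPM.

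Within the members, barcodes were divided by Arg1 UMIs per 10000, under 10, from 10 to 30, and 30 or more. In the control library these groups held 151, 185 and 142 barcodes, and in the IL4 library 135, 120 and 53, and the barcodes of the lowest group were deeper, since the gate asks for whole UMIs. Pf4 stood at 268, 377 and 1230 CPM over the control groups and at 241, 527 and 1325 CPM over the IL4 groups. Hmox1 levels were 581, 736 and 1340 CPM (control) and 423, 791 and 1390 CPM (IL4), and those of Cxcl3 were 207, 227 and 1227 CPM (control) and 417, 549 and 1289 CPM (IL4). In the highest group 1 barcode held 26.8% of the control UMIs of Cxcl3, and 1 barcode held 27.4% of the IL4 UMIs of Pf4 and 27.7% of those of Hmox1. Nt5e stood at 164 CPM in the highest control and 93.8 CPM in the highest IL4 group, and Spp1 at 1590 and 690 CPM. The MHC class II sum was 14723 CPM in the lowest and 10277 CPM in the highest control group and stood at 12562 and 13180 CPM at the ends of the IL4 groups.

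At the gate edges, barcodes with 3 or 4 Arg1 UMIs that passed all other gates held 9382 CPM of the glycolysis list in the control and 7131 CPM in the IL4 library, and those with 1 or 2 held 9004 and 7309 CPM. Just inside the hypoxia gate, barcodes with 3 or 4 UMIs held 8103 and 7605 CPM, and those with 1 or 2 held 6835 and 6412 CPM. Nt5e stood at 156 and 63.3 CPM just inside the Arg1 gate and at 67.3 and 28.1 CPM just outside it, and H2-Ab1 at 1685 and 1659 CPM inside and 2166 and 2122 CPM outside.

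The study compared tumours after transfer of untreated and of IL-4-treated macrophages, and the members were a smaller share of the IL4 library. They made up 5.35% (4.89 to 5.84) of kept control and 2.24% (2.0 to 2.5) of kept IL4 barcodes, a difference of -3.11 points (-3.65 to -2.59). Within Xist-only barcodes the shares were 4.05% and 2.22%, and within Y-only barcodes 7.25% and 2.77%. The Arg1 gate was passed by 1336 control and 1283 IL4 barcodes, and of these the members were 35.8% and 24.0%. After thinning to 5000 UMIs before the gates were applied, the shares were 4.74% and 1.66%. In a single library per group, the treatment, the animals and the library cannot be told apart, and a share of sorted cells can also move with the number of other cells. The gates read Arg1 and hypoxia genes, so a share can also move with the level of these genes per cell.

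**Figure D4:**
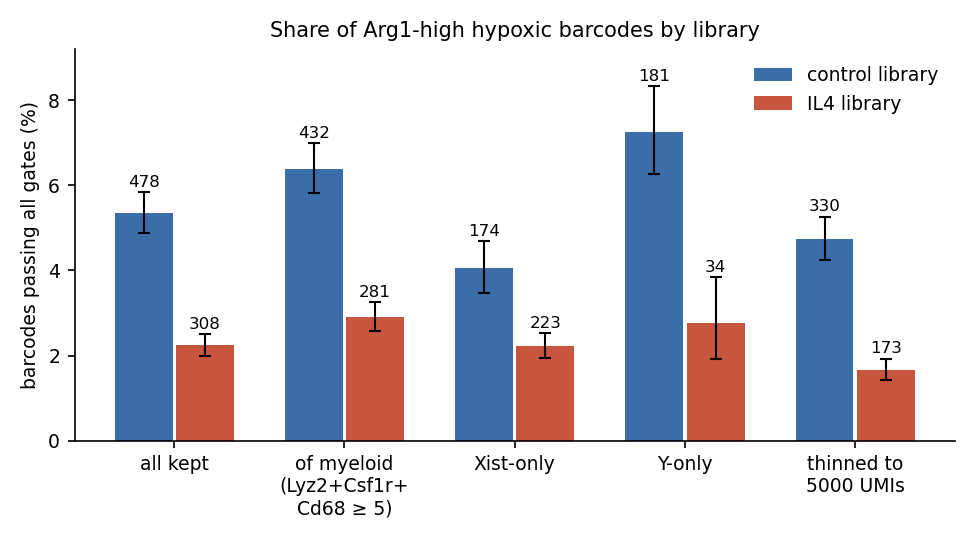
Share of barcodes that passed all gates (y axis, percent), in the control (blue) and IL4 (red) library, over all kept barcodes, over barcodes with at least 5 UMIs of Lyz2, Csf1r and Cd68, within Xist-only and Y-only barcodes and after thinning. Black bars are 95% exact binomial intervals, counting error only, and the numbers give the passing barcodes. The control share is above the IL4 share in each pair, and the gap is widest within Y-only barcodes, at 7.25% against 2.77%.

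Within the members, 8108 genes had at least 50 UMIs over both libraries, of which 428 (5.28%) were at least 1.5-fold higher and 385 (4.75%) at least 1.5-fold lower in the IL4 library, with a median log2 ratio over all genes of -0.00. NF-kB inflammatory genes and type I interferon response genes were higher in the IL4 members, and hypoxia genes were slightly lower.

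Of the NF-kB inflammatory genes, 15 of 20 were at least 1.5-fold higher in the IL4 members, and all 20 had a ratio above 0. The neutrophil attractant Cxcl1 stood at 190 CPM in control and 587 CPM in IL4 members, 3.09-fold (2.85 to 3.36). Tnf, a central inflammatory cytokine, stood at 155 and 389 CPM, 2.52-fold (2.29 to 2.77), and the chemokine gene Ccl4 at 1656 and 3822 CPM, 2.31-fold (2.24 to 2.38). Il1b, interleukin 1 beta, chosen after its values were seen, stood at 1798 and 2933 CPM. The list median was 0.71 in members (Xist-only 0.59, Y-only 1.17) and 0.45 in other myeloid barcodes, where the direction was the same.

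Of the type I interferon response genes, 14 of 17 were at least 1.5-fold higher and all 17 had a ratio above 0. Ifit2, an inhibitor of viral translation, stood at 15.1 and 94.9 CPM, 6.28-fold (4.81 to 8.29). The T cell attractant Cxcl10 stood at 240 and 784 CPM, 3.27-fold (3.04 to 3.52), and Isg15, a ubiquitin-like modifier, at 215 and 506 CPM. The list median was 1.05 in members (Xist-only 0.59, Y-only 1.89), against 0.29 in other myeloid barcodes. A test of that difference between members and other myeloid barcodes was not possible with 1 library per group. The summed level of the list was 1670 CPM in control and 3562 CPM in IL4 members, below the 3639 and 4686 CPM of myeloid barcodes with neither gate.

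Among single genes, Acod1, which makes itaconate, stood at 122 and 401 CPM, 3.29-fold (2.97 to 3.65), and Il10, an anti-inflammatory cytokine gene, at 34.3 and 105 CPM, 3.07-fold (2.53 to 3.74). Both had ratios above 0 within Xist-only and within Y-only barcodes, as had Ifi205, Marcksl1 and Cd72, whose log2 ratios were 1.67, 1.57 and 1.62. The monocyte gene Ly6c2 stood at 71.2 and 178 CPM, 2.49-fold (2.17 to 2.87). Of MHC class I genes, 16 of 18 had a ratio above 0 with a median of 0.41, and 2 passed 1.5-fold, H2-Q7 and Psmb9. Psmb9 stood at 83.7 and 130 CPM and the class I chain H2-K1 at 612 and 891 CPM. MHC class II genes had a median of 0.09, with H2-Ab1 at 1.09-fold (1.05 to 1.13) and Cd74, the invariant chain, at 0.958-fold (0.936 to 0.98). Cd274 was 1.44-fold (1.34 to 1.54) higher. Ly6c2 and Cd274 were also higher in other myeloid barcodes of the IL4 library. Their detected shares there after thinning were 20.3% (control) and 32.0% (IL4) for Ly6c2 and 29.1% and 37.8% for Cd274. Ly6c2 is not limited to monocytes here. It was detected after thinning in 27.1% and 35.7% of lymphocyte barcodes, against 8.44% and 20.9% of members.

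**Figure D5:**
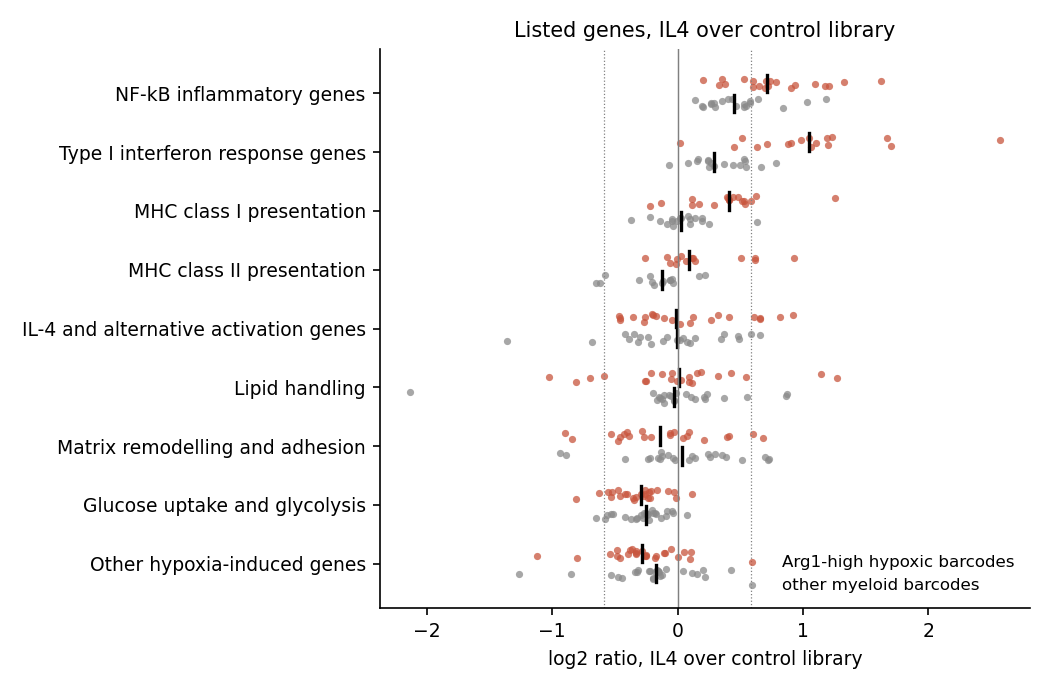
Log2 ratio of the IL4 over the control library (x axis) for the genes of 9 lists (rows), in Arg1-high hypoxic barcodes (red) and in other myeloid barcodes (grey). Each point is a gene with at least 20 UMIs, thick black bars are list medians and dotted lines mark 1.5-fold. The red points of the NF-kB and type I interferon lists lie to the right of 0, with medians of 0.71 and 1.05, and those of both hypoxia lists lie mostly to the left, with medians of -0.29.

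Hypoxia and glycolysis genes were lower in the IL4 members by a small amount. Over 50 such genes the gates did not use, the median log2 ratio was -0.29, with 4 genes lower by at least 1.5-fold (Adm, Slc2a1, Ddit4 and Slc2a3) and 0 higher. Slc2a1 stood at 382 and 217 CPM, 0.568-fold (0.517 to 0.622). Adm stood at 17.9 and 7.68 CPM, 0.428-fold (0.255 to 0.692). Ldha, at 899 and 801 CPM, and Vegfa, at 630 and 556 CPM, differed by less. In other myeloid barcodes the lists had medians of -0.25 for glycolysis and -0.17 for the other hypoxia genes, and within members both lists together had -0.16 (Xist-only) and -0.44 (Y-only).

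The IL-4 response list had a median of -0.01 in the members, with 5 of 21 genes higher (Socs1, Retnla, Egr2, Ccl22 and Cish) and 0 lower. Retnla counts here with a log2 ratio of 0.82, but 1 barcode held 51.9% of its control UMIs, and the ratio was -5.66 with the gates applied after thinning, -2.05 without the lipid and resident gates and -0.15 in Xist-only barcodes. Socs1, a feedback inhibitor of cytokine signalling, stood at 47.9 and 91.4 CPM, 1.91-fold (1.59 to 2.29), and Egr2, a transcription factor induced by IL-4, at 105 and 166 CPM, 1.58-fold (1.39 to 1.80). Il4ra was 1.09-fold (0.964 to 1.23) and its interval included 1. Smyd5 was 1.70-fold (0.862 to 3.37), with 19 and 20 UMIs, and no difference was detectable at this depth.

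Lower in the IL4 members were Nt5e, 0.413-fold (0.346 to 0.489), and Pgf, placental growth factor, 0.367-fold (0.238 to 0.549), and both were lower within Xist-only and within Y-only barcodes. Spp1 was 0.535-fold (0.50 to 0.572), with log2 ratios of -0.88 (Xist-only) and 0.07 (Y-only). Other myeloid barcodes moved the same way. After thinning, Spp1 was detected in 11.3% of them in control and 8.56% in IL4, and Nt5e in 3.09% and 1.87%. Acss1, F5, Nars2, Enah, S1pr3 and Agbl3, each with a UMI in 18 or more barcodes of both libraries, had log2 ratios between -1.47 and -1.25. Cd209a, with a UMI in 28 and 23 barcodes, had a log2 ratio of -1.23, which was 1.14 in Y-only barcodes. The chaperone gene Hspb1 stood at 155 and 46.4 CPM, and Hspa1a at 1628 and 742 CPM. Heat-shock genes respond to tissue handling, and in other myeloid barcodes their log2 ratios were -2.02 for Hspb1 and -0.96 for Hspa1a, and their part in the other results was not tested.

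Several of the largest ratios rested on few barcodes or on genes of other cells. Of the 149 Xcl1 UMIs of the IL4 members, 124 came from 1 barcode, and without the top barcode of each library its log2 ratio was 2.38 in place of 4.53. Of the 140 Lyz1 UMIs of the control members, 117 came from 1 barcode, and without the top barcodes the ratio was -0.11 in place of -2.17. Chn2 dropped in the same way from 2.36 to 1.15. Ppbp, at 48.3 and 10.5 CPM, rested on 24 control and 7 IL4 barcodes, and its ratio was 0.98 within Y-only barcodes. Xcl1, Gzma and Nkg7 are genes of natural killer (NK) cells, and a UMI of 6 such genes was present in 43 control and 77 IL4 members.

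The 12 NK markers that the gates did not use summed to 39.5 CPM in control and 138 CPM in IL4 members, against 129 and 142 CPM in myeloid barcodes with neither gate and 4576 and 5122 CPM in lymphocyte barcodes. Ccl5, at 73.8 and 350 CPM, 4.75-fold (4.19 to 5.38), is also made by lymphocytes and was detected after thinning in 8.65% and 29.1% of members and in 75% and 85.7% of lymphocyte barcodes. It was also detected more often in other myeloid barcodes of the IL4 library, in 12.8% (control) and 26.7% (IL4). Without members with a UMI of the 6 NK genes, a choice made after these values were seen, the log2 ratio of Ccl5 was 2.31, that of Ifit2 2.58 and that of Cxcl1 1.36. The medians of the NF-kB and type I interferon lists were then 0.77 and 1.09.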

How the data were processed

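For 2 libraries the authors deposited raw UMI counts of each gene in each barcode, and the submitters' processing notes name Cell Ranger 7.2.0 and mm10. Kept barcodes had 500 or more UMIs, 250 or more genes and no more than 10% of UMIs from mitochondrial genes. Members were found by the gates, and UMIs were summed per library and group and scaled to CPM, with a pseudocount of 1 for log2 ratios. Gene counts needed 50 UMIs and list medians 20 UMIs over both sides. Levels have exact Poisson, folds exact conditional binomial, shares Clopper-Pearson and differences of shares Newcombe intervals (scipy 1.17.1). No doublet caller was used, so doublets remain possible. The summing was tested on simulated data. Those counts were drawn without variation between barcodes, so the test does not cover genes whose UMIs lie mostly in 1 barcode. Coordinates come from GENCODE M21 on GRCm38, promoters from RefSeq on GRCm38.p6.

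The members, the gene lists and the alternatives were chosen with earlier results of these data known. Named genes were the 20 highest and 10 lowest ratios against other myeloid barcodes (50 UMIs and 20 CPM or more), the 12 highest and 12 lowest between libraries, up to 4 per list, and a set of fixed genes. Mitochondrial, ribosomal, receptor, immunoglobulin, haemoglobin, predicted and sex-linked genes were left out. Genes without a row in the files were not analysed here.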

Additional observations from a re-analysis of the deposited data

Results flagged for a closer look

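Among the named genes, 7 differed between the libraries in opposite directions within Xist-only and within Y-only members, each with an interval clear of no change. The difference between these sets was not tested, and the Y-only IL4 set has 34 barcodes. G0s2 had log2 ratios of IL4 over control of -1.75 (Xist-only) and 3.49 (Y-only), 5.23 apart, and 94 of its 95 UMIs in the Y-only IL4 set came from 1 barcode. S100a9 had -1.29 and 2.48, 3.77 apart, and 60 of its 61 UMIs there came from 1 barcode. Ctnnd2 had -1.46 and 2.93, 4.39 apart, on 5 UMIs in the Y-only IL4 set. Inhba had -0.42 and 0.57, 0.99 apart, and 1 barcode held 82 of its 131 UMIs there. Mt2 had -0.91 and 1.0, 1.91 apart, on 45 UMIs there. Mt1, a metallothionein gene with UMIs in 32 of the 34 barcodes, had -0.57 and 0.37, 0.94 apart. Lyz2, also in 32 of 34, had 0.16 and -0.29, a difference of -0.45.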

How the results depend on the processing

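The difference of shares kept its sign under every alternative run and moved from -3.11 points to -4.65 without the lipid and resident exclusion gates, -1.83 (Xist-only) and -4.48 (Y-only). The median of hypoxia and glycolysis genes, members over other myeloid barcodes, moved from 1.06 to 1.22 with gates after thinning, 1.18 with inclusion gates at 5 UMIs and 1.21 in Y-only barcodes. Genes at least 1.5-fold higher in the IL4 members numbered 428, and 283 with a pseudocount of 5 CPM, 173 with a minimum of 200 UMIs and 1539 with no minimum. Genes at least 1.5-fold lower numbered 385, and 233, 156 and 1336 under the same settings and 904 in Y-only barcodes, where the share of higher among such genes was 34.5% in place of 52.6%. The hypoxia median between libraries, -0.29, stayed within the median of the counting-error limits of its single genes. Those limits are not an interval of the list median itself, so smaller shifts of it are not excluded. The cause of these shifts was not tested, beyond that fewer or more genes entered under other minimums. Between libraries, log2 ratios turned to 1.14 for Cd209a, 0.98 for Ppbp, 0.29 for Lyz1, -0.15 for Smyd5 and 0.0698 for Spp1 in Y-only barcodes, to 0.32 for Lyz1 and -5.66 for Retnla with gates after thinning, and for Retnla to -2.05 without the lipid and resident gates and -0.15 in Xist-only barcodes. Of 360 ratios of genes past 1.5-fold between libraries, 349 kept their sign over the alternatives, the 9 just given turned, and those of Xcl1 and Gzma came to 0 without the barcodes with NK gene UMIs, which hold all their UMIs. The sign was kept in 468 of 468 of members over other myeloid barcodes. These 468 take in the gate genes and the genes picked for the most extreme ratios of that contrast, so they could hardly turn. The 360 likewise take in genes picked for their ratios between the libraries. No paired analysis was possible because each group has 1 library. With 34 barcodes, the Y-only IL4 set limits what can be read from it.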

Other observations

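Genes of the respiratory chain encoded in the nucleus lay close to other myeloid barcodes, with median log2 ratios of -0.29 (control) and -0.15 (IL4), while Cox4i2, the subunit of cytochrome oxidase known to be made when oxygen is low, stood at 2.16. That ratio came from low levels, with 46 Cox4i2 UMIs in 33 control members and 18 in 16 IL4 members. Arginine and polyamine genes split: Slc7a2, which imports arginine, stood at 1.68 and the importer Slc7a1 at -0.83, and the creatine kinase gene Ckb at -1.47. Genes of the unfolded protein response had a median of 0.09. Non-classical monocyte markers were lower in 8 of 10 cases, with Ace at -1.96 and Cd300e at -1.76. Over all genes of this contrast, 10.4% were at least 1.5-fold lower. Ace and Cd300e were near the floor in members, with 13 (control) and 2 (IL4) UMIs of Ace and 5 and 2 of Cd300e.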
